A study of Mus musculus with 5 samples.

Results

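Forkhead (Fox) genes encode transcription factors that bind DNA through a winged-helix domain. Described here are the 38 mouse protein-coding genes whose symbol is Fox followed by a letter and a digit, out of 44 such genes in RefSeq. Left out are the Foxc and Foxf clusters and Foxd3, that is Foxc1, Foxc2, Foxf1, Foxf2, Foxl1 and Foxd3. The assay was ATAC-seq, in which a transposase cuts and tags open chromatin, on forelimb buds of embryos with 40 to 48 somites (E11.5). A library was made from 50K cells of the anterior forelimb pair of a single embryo of known genotype. The 3 mutant embryos were PrxCre/+;Smarcc1c/c and the 2 control embryos were Prx+/+;Smarcc1c/c, so that both groups carried the conditional Smarcc1 allele on each chromosome and only the mutants carried Cre. Peaks of the 5 deposited lists that shared at least 1 bp were merged into 86713 regions. Of these, 682 lay inside one of the 38 genes or within 100 kb of it, and they are called forkhead regions below. A region was proximal when it lay within 1 kb of a listed gene start, or of either end of a gene whose strand was not listed, and distal otherwise. There were 170 proximal and 512 distal forkhead regions, and the nearest gene end belonged to a forkhead gene at 282 of the 682 and to another gene at 400.

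The Smarcc1 product BAF155 is a core part of BAF chromatin remodelling complexes, which slide and evict nucleosomes and act at many enhancers. Cre under the Prx driver acts in limb bud mesenchyme, while the ectoderm and cells that migrate into the limb, such as muscle precursors, endothelium and blood, lie outside its domain. Among forkhead factors, Foxa proteins can bind nucleosomal DNA and open it, Foxo proteins leave the nucleus when the kinase AKT phosphorylates them downstream of insulin, and Foxp proteins are mostly repressors that dimerise with each other. In the developing limb skeleton Foxp1, Foxp2, Foxp4 and several Foxo genes act in cartilage and bone cells. A peak tells that chromatin was open, not that the gene was transcribed. In bulk tissue, fewer cells of a type and less accessibility per cell cannot be told apart.

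The start of a gene is where open chromatin was found most evenly in these embryos, and a few start sequences show how the members differ. RefSeq (build GRCm38.p6, the coordinates of mm10) listed 30 starts for 25 of the 38 genes, each with 250 bases before the start and 50 after it. Foxo3 (chr10:42276646-42276945, minus strand) is shown because it had the highest start peak of the family in 4 of the 5 libraries, all but mutant 3. The Foxp1 start at chr6:99028249-99028548 (minus strand) is shown because it lay open in all 5 libraries deep inside a gene body where most regions of the controls had no peak in a mutant. Foxj3 (chr4:119539411-119539710, plus strand) was open in all 5 libraries and holds a forkhead motif. Foxa1 (chr12:57546062-57546361, minus strand) holds the other forkhead motif and had a peak over this start window in the controls only. Those peaks were weak, with folds over background of 3.12 and 3.37, at percentiles 14.5 and 35.1 of their lists. A separate proximal region next to this window, chr12:57544874-57545962, had a peak in all 5 libraries. Foxn3 (chr12:99450025-99450324, minus strand) and Foxi1 (chr11:34208040-34208339, minus strand) had no peak over the listed start in any library. This Foxn3 start lies inside the gene body. The region at the outer start of Foxn3, chr12:99561946-99564027, had a peak in all 5 libraries. Sequences run 5′ to 3′ on the gene's strand. Capitals mark every match, on either strand, of the forkhead motifs TGTTTAC and TGTTTGC, the GLI motif GGGTGGTC, the CCAAT box, TATAAA and the GC box GGGCGG, none of which contains another.
Foxo3: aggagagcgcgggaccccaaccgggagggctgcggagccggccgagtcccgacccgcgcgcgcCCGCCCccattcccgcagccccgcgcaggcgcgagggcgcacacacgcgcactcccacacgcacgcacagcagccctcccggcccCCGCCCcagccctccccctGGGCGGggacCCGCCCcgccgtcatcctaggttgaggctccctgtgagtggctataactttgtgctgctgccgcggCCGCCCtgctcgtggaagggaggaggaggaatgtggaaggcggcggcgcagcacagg
Foxp1: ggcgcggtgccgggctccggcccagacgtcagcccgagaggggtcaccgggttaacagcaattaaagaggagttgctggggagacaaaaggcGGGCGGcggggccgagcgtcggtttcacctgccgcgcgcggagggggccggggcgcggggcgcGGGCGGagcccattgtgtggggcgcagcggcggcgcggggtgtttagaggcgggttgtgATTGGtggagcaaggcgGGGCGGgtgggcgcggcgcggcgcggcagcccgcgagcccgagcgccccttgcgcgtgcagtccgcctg
Foxj3: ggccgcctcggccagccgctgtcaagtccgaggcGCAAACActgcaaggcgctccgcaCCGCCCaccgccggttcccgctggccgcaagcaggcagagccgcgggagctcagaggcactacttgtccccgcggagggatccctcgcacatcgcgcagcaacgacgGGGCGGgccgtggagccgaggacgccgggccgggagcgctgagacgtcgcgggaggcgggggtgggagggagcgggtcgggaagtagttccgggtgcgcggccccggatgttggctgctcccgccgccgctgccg
Foxa1: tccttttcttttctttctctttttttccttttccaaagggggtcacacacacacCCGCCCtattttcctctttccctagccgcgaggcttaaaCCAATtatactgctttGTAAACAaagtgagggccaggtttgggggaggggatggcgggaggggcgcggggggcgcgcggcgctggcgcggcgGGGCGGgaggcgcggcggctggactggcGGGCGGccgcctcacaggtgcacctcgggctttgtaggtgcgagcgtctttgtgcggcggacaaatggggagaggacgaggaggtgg
Foxn3: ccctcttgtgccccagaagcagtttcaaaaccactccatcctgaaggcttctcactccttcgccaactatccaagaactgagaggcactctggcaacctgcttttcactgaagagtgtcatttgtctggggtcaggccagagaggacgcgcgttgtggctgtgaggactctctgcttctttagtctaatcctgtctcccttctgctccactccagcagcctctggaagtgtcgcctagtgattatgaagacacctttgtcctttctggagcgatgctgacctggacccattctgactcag
Foxi1: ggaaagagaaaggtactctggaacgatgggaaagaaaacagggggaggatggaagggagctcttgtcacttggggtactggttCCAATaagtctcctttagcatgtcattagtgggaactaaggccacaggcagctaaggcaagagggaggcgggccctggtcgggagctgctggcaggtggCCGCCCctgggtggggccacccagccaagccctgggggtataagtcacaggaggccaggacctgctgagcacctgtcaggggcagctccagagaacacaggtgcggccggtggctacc

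The 11 member starts with a peak over them in all 5 libraries had a median GC content of 71.3% and a median of 33 CpG dinucleotides per 300-base window, and all 11 held a GC box. The 11 member starts with no peak in any library had a median GC content of 54.3% and a median of 8 CpG, and 4 of the 11 held a GC box. The remaining 8 starts, with a peak in 1 to 4 libraries, had 61.3% GC and 17.5 CpG. The same order held over all 21045 listed mouse starts, of which 51.7% were open in all 5 libraries, with medians of 62.7% GC and 23 CpG in the open set and 47.0% GC and 3 CpG in the set with no peak. The GC box stood in 22 of 30 member starts (73.3%), against 46.7% of all starts. TGTTTAC was present at 1 of 30 member starts (3.33%, Foxa1), against 3.03% of all starts. TGTTTGC was present at 2 of 30 (6.67%, Foxj3 and the outer start of Foxp1), against 4.62% of all starts. The GLI motif was at none of the 30, against 0.746% of all starts. CCAAT stood in 14 of 30 (46.7%, against 38.5%), and TATAAA in 3 of 30 (10%, against 12.7%). A match of letters is a description of the window, not evidence that a factor bound there.

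Forkhead regions with a peak numbered 274, 368 and 195 in mutants 1, 2 and 3, against 502 and 427 in controls 1 and 2. Every mutant lay below both controls. The means were 279 ± 86.6 in mutants and 464.5 ± 53.0 in controls (SD, n = 3 and 2), a difference of −185.5 regions, or 39.9% fewer. An exact two-sided permutation test gave p = 0.2, the smallest value that 3 against 2 libraries allow, so no comparison here could pass 0.05. Distal forkhead regions numbered 150, 219 and 84 in mutants against 354 and 285 in controls. They made up most of the difference, at −168.5 regions or 52.7% fewer, again without overlap (exact permutation p = 0.2). Proximal forkhead regions numbered 124, 149 and 111 in mutants against 148 and 142 in controls. These groups overlapped, and the difference of −17 regions was smaller than the spread among mutants (exact permutation p = 0.6).

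**Figure D1:**
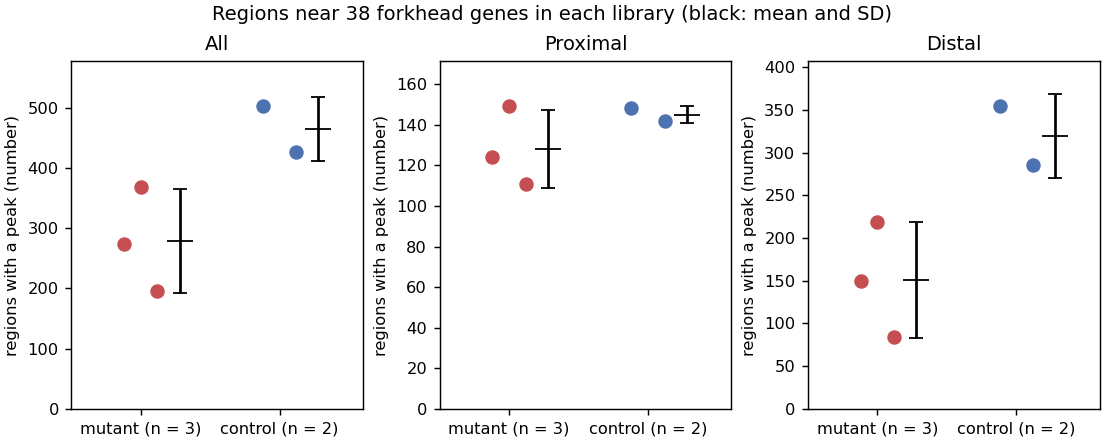
Number of forkhead regions with a peak in each library, for all regions, proximal regions and distal regions, in mutants (red) and controls (blue). Black bars give the mean and SD. The mutants hold 84 to 219 distal regions and the controls 285 and 354, while the proximal counts overlap.

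The lists differed in length as well. The mutant lists were shorter, with 36719, 42794 and 27194 peaks, against 68959 and 60333 in the control lists. Forkhead regions made up 0.846%, 0.948% and 0.825% of all regions in the mutant libraries, against 0.769% and 0.758% in the control libraries, so that their share was higher in every mutant (exact permutation p = 0.2). When every list was shortened to its 27194 strongest peaks, forkhead regions numbered 199, 242 and 196 in mutants against 206 and 200 in controls, and the difference turned to +9.33 (exact permutation p = 1). Distal forkhead regions then numbered 87, 114 and 85 in mutants against 97 and 95 in controls, groups that overlap, with a difference of −0.667. Proximal ones numbered 112, 128 and 111 in mutants against 109 and 105 in controls, so that every mutant lay above both controls (exact permutation p = 0.2). All other proximal regions then numbered 12568, 13165 and 12314 in mutants against 12359 and 12134 in controls, groups that overlap. All other distal regions numbered 12527, 12399 and 11237 in mutants against 14175 and 14236 in controls, still lower in every mutant. The lower count of forkhead regions in mutants is a count at the authors' threshold, and it was not present at equal list length. The lowest fold that was called was 2.47, 2.46 and 2.52 in the mutants against 2.43 and 2.29 in the controls, and open chromatin below that level is not listed. The read depth of the libraries is unknown.

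Region by region, 351 forkhead regions had a peak in both controls. No mutant had a peak at 91 of them, or 25.9%, where the same call was met by 30.4% of all regions of both controls. A further 30 had a peak in 1 mutant and 59 in 2 mutants. The remaining 171 had a peak in every mutant, or 48.7%, against 43.4% of all regions. With control 2 alone as the reference the count in no mutant was 155, and with control 1 alone it was 224. At equal list length 166 forkhead regions were in both controls and 13 of them in no mutant, or 7.83%, against 13.4% of all regions. No forkhead region had a peak in every mutant and in neither control, a pattern found at 0.0484% of all 86713 regions. At equal list length 4 forkhead regions showed it.

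Most proximal forkhead regions were found in both genotypes. Of 134 in both controls, 8 were in no mutant (5.97%, against 4.16% of all proximal regions) and 106 in every mutant (79.1%, against 83.3%). Of 217 distal forkhead regions in both controls, 83 were in no mutant (38.2%, against 42.7% of all distal regions) and 65 in every mutant (30%, against 24.7%). Per mutant library, the share of distal forkhead regions of both controls that lacked a peak was 47.9%, 43.8% and 65.4%, a mean of 52.4% ± 11 (SD, n = 3), beside 58.9% ± 8.84 for all other distal regions. These shares lie near the background and are no result about the family as a whole.

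Weak regions of the controls were the ones most often without a peak in the mutants. Regions of both controls were divided into 4 bins by the mean percentile of their fold in the control lists. In the weakest bin 42 of 72 distal forkhead regions were in no mutant (58.3%, against 63.2% of all other distal regions). In the next bins the share was 41.3% of 75, 18.4% of 49 and 4.76% of 21, against 45.2%, 26.3% and 4.94% of the others. Among proximal forkhead regions the weakest bin had 6 of 15 in no mutant (40%), the next had 2 of 19 (10.5%), and the 100 stronger ones had none. All other proximal regions had 34.2% and 12.2% in those 2 bins and 1.63% and 0.0118% in the stronger ones, so the forkhead shares lay near them.

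**Figure D2:**
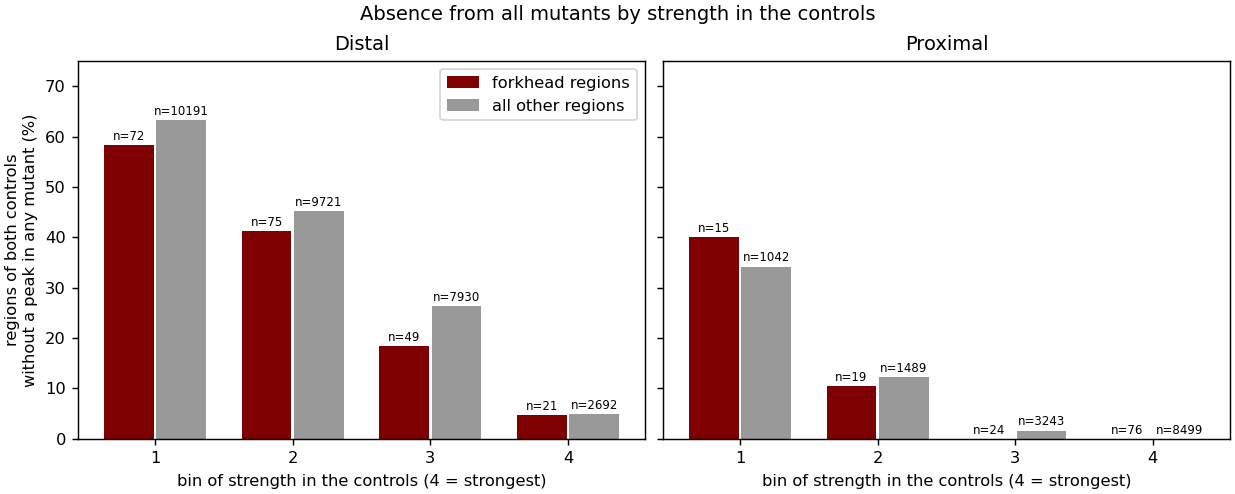
Share of regions of both controls that had no peak in any mutant, by bin of strength in the controls (4 is the strongest), for distal and proximal regions. Dark red bars are forkhead regions and grey bars all other regions, with the number of regions above each bar. The share falls with strength in both sets, reaching 4.76% and 4.94% for the strongest distal regions.

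The 38 genes differed widely in how many of their regions the mutants kept. The number of regions per gene ran between 2 (Foxr2) and 47 (Foxk1), with a median of 14, and 19 regions lay near both Foxd2 and Foxe3. In 22 of the 38 genes every mutant had fewer regions than either control, a pattern met by 48.8% of 19485 genes that had any region. No forkhead gene had more regions in every mutant than in either control, a pattern met by 0.00513% of those genes. At least 1 region of both controls was missing from all mutants near 33 of the 38 genes, where 65.8% of the 19485 genes met that call. Windows with more regions have more chances to meet it, and no allowance was made for their number. The exceptions were Foxa3, Foxk2, Foxl2, Foxo4 and Foxr2. At least 1 region of both controls was present in all mutants near 35 of the 38, against 92.6% of the 19485 genes, and the exceptions were Foxb1, Foxi1 and Foxi2.

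**Figure D3:**
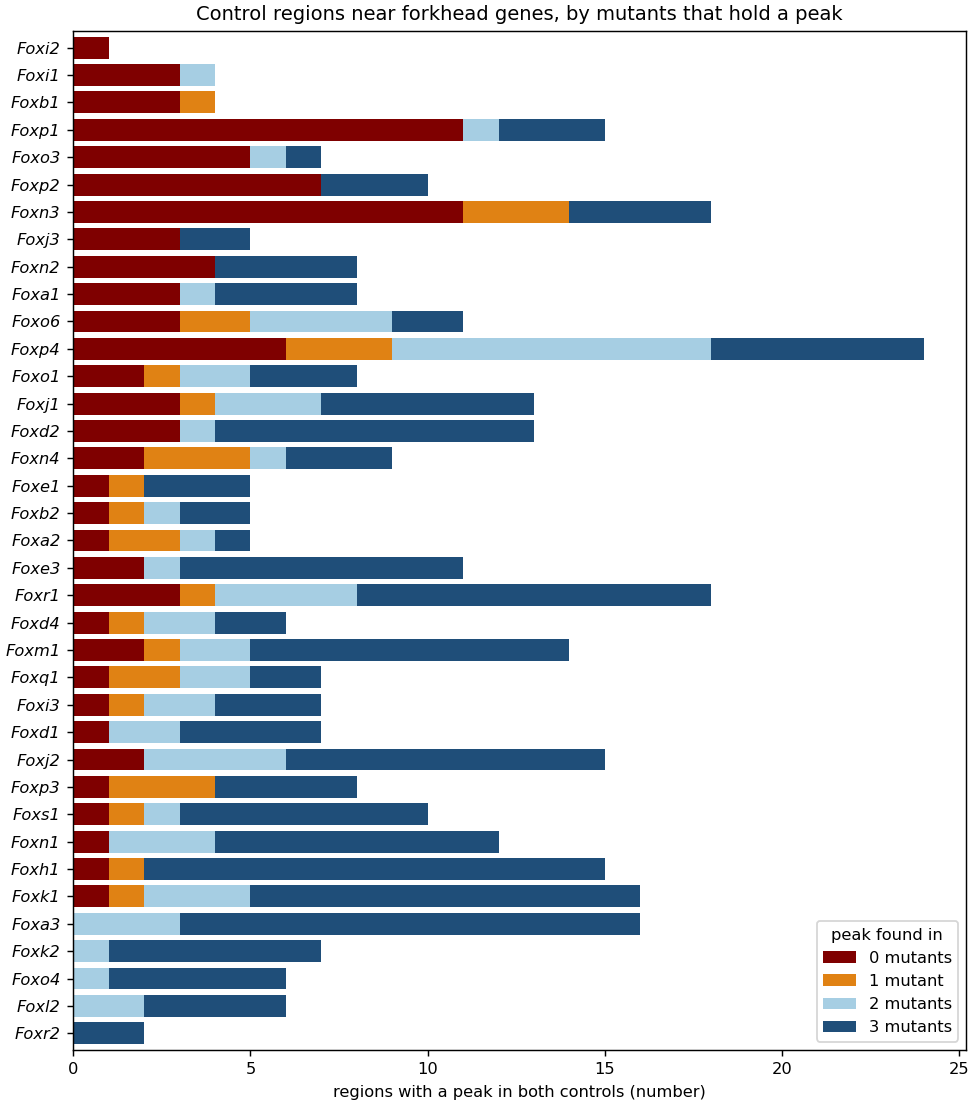
Number of regions with a peak in both controls near the forkhead genes, 1 gene a bar, coloured by how many of the 3 mutants had a peak there. Genes run by the share of regions found in no mutant, highest at the top. Foxp1 and Foxn3 each have 11 regions in no mutant, and Foxa3, Foxh1 and Foxk1 have 11 to 13 in every mutant.

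Foxp1, Foxp2 and Foxp4, the Foxp genes of skeletal and limb mesenchyme, had 27, 39 and 13 regions in mutants against 79 and 58 in controls. Of 49 regions in both controls, 24 were in no mutant (49.0%, against 30.4% of all regions) and 12 in every mutant (24.5%, against 43.4%). Most of them, 41, were distal, and 22 of those were in no mutant (53.7%, against 42.7% of all distal regions). Foxp1 had 6, 8 and 4 regions in mutants against 31 and 19 in controls. Foxp2 had 3 regions in each mutant against 15 and 11 in controls. Both genes had fewer regions in every mutant than in either control. Foxp4 had 18, 28 and 6 regions in mutants against 33 and 28 in controls, where mutant 2 equalled control 2. Of 24 Foxp4 regions in both controls, 6 were in no mutant and 6 in every mutant. Foxp3, which specifies regulatory T cells, had 5 regions in each mutant against 9 in each control, all of them nearest to the end of another gene.

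The Foxo genes, which carry insulin and AKT signalling to the genome, had 25, 29 and 15 regions in mutants against 58 and 39 in controls. Among their 32 regions of both controls, 10 were in no mutant (31.2%, against 30.4% of all regions). Foxo3 had 2, 2 and 1 regions in mutants against 12 and 9 in controls, and 5 of its 7 regions of both controls were in no mutant. Foxo1 had 9, 8 and 3 regions in mutants against 14 and 9 in controls, groups that overlap. Foxo6 had 7, 13 and 6 in mutants against 24 and 13 in controls. Foxo4 had 7, 6 and 5 in mutants against 8 and 8 in controls, and none of its 6 regions of both controls was missing from all mutants.

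Among the widely expressed factors and the cell cycle factor Foxm1, 23 of 83 regions of both controls were in no mutant (27.7%) and 45 in every mutant (54.2%). All regions had 30.4% and 43.4%. Foxn3, a repressor linked to the DNA damage checkpoint in human cells, had 7, 9 and 4 regions in mutants against 38 and 21 in controls, and 11 of its 18 regions of both controls were in no mutant. Foxn2 had 4, 4 and 5 in mutants against 12 and 10 in controls, and Foxj3 had 2 in each mutant against 8 and 6 in controls. Foxj2 had 13, 13 and 15 regions in mutants against 16 and 17 in controls. Foxm1, which drives genes of mitotic entry, had 12, 13 and 9 in mutants against 15 and 14 in controls. Foxk1 had 20, 26 and 13 regions in mutants against 27 and 23 in controls, with 1 of 16 regions of both controls in no mutant. Foxk2, whose protein recruits the deubiquitinase BAP1, had 7, 12 and 6 regions in mutants against 7 and 8 in controls, with none of 7 missing.

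The Foxa genes, pioneer factors of endoderm, had 4 of 29 regions of both controls in no mutant and 18 in every mutant. That is 13.8% and 62.1%, against 30.4% and 43.4% of all regions. Of the 29, 15 were proximal, with 1 in no mutant. The 14 distal ones had 3 in no mutant (21.4%, against 42.7% of all distal regions). By gene, 3 of 8 were in no mutant at Foxa1, 1 of 5 at Foxa2 and 0 of 16 at Foxa3. Foxa1 had 4, 6 and 5 regions in mutants against 12 and 9 in controls, and Foxa2 had 4, 4 and 1 in mutants against 7 and 7 in controls. Foxa3 had 19, 33 and 14 regions in mutants against 19 and 17 in controls, and of its 36 regions 33 were nearest to the end of another gene. Foxd1, Foxd2 and Foxd4 had 5 of 26 regions of both controls in no mutant and 15 in every mutant (19.2% and 57.7%). Of these 26, 11 were proximal, with 1 in no mutant, and 15 were distal, with 4 in no mutant (26.7%). Foxd1, a factor of kidney stroma, had 6, 6 and 4 regions in mutants against 12 and 7 in controls. Foxd2 had 11, 13 and 11 in mutants against 18 and 16 in controls, and Foxd4 had 4, 5 and 2 in mutants against 7 and 6 in controls. All 3 genes had fewer in every mutant than in either control. In the group of 10 neural, head and ectoderm factors, 16 of 62 were in no mutant and 29 in every mutant (25.8% and 46.8%). Foxb1, a factor of the hypothalamus, had 2, 3 and 0 regions in mutants against 5 and 7 in controls. Foxi1, a factor of the inner ear and of acid-secreting cells, had 2, 1 and 0 in mutants against 5 and 5 in controls. Foxe3, a factor of the lens, had 9, 12 and 9 in mutants against 16 and 14 in controls, all of them shared with Foxd2. Foxe1, a factor of the thyroid, had 5, 7 and 3 in mutants against 8 and 9 in controls, and Foxq1, a factor of the hair shaft, had 7, 4 and 3 in mutants against 9 and 8 in controls. All of these genes had fewer regions in every mutant than in either control. Foxb2 did as well, with 3, 4 and 2 in mutants against 6 and 5 in controls. In Foxi3, a factor of ectodermal placodes, the groups overlapped, with 7, 4 and 5 in mutants against 7 and 8 in controls. They also overlapped in Foxi2, with 3, 2 and 1 in mutants against 4 and 3 in controls, and in Foxn1, the factor of thymic epithelium, with 10, 14 and 9 in mutants against 13 and 14 in controls.

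Foxj1, the master factor of motile cilia, had 10, 22 and 6 regions in mutants against 21 and 21 in controls. Foxn4, a factor of the retina and of multiciliated cells, had 5, 11 and 3 in mutants against 11 and 12 in controls. Together 5 of their 22 regions of both controls were in no mutant (22.7%, against 30.4% of all regions). Foxh1, the SMAD partner of Nodal signalling, had 14, 22 and 13 regions in mutants against 16 and 18 in controls, with 13 of 15 regions of both controls in every mutant. Its window is rich in other genes, and 14 of those 15 regions were proximal. Foxs1, Foxl2, Foxr1 and Foxr2, factors of vessels and gonads or of less known role, had 4 of 36 regions of both controls in no mutant and 23 in every mutant. These shares were 11.1% and 63.9%, against 30.4% and 43.4% of all regions. Most of the 36, 20, were proximal, and none of those was in no mutant. Of the 16 distal ones 4 were in no mutant (25%, against 42.7% of all distal regions). Foxl2, a factor of the ovary and eyelid, had 6, 6 and 4 regions in mutants against 6 and 6 in controls. Foxs1 had 8, 17 and 7 in mutants against 15 and 11 in controls, Foxr1 had 16, 26 and 10 in mutants against 24 and 24 in controls, and Foxr2 had 2 in every library. The groups overlapped in all 4 genes.

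Among the mutants, mutant 2 had the most regions that no other library had. Forkhead regions found in 1 library alone numbered 14, 84 and 1 in mutants 1, 2 and 3 against 122 and 55 in the controls. They made up 5.11%, 22.8% and 0.51% of the forkhead regions of the mutants against 24.3% and 12.9% of those of the controls. For all other regions the shares were 6.16%, 17.9% and 2.91% in mutants against 26.2% and 15.8% in controls, the same order of libraries, so this is a trait of the whole lists. Near 6 genes (Foxa3, Foxh1, Foxj1, Foxk2, Foxr1 and Foxs1) mutant 2 had more regions than either control, a pattern met by 14.2% of genes. The regions of mutant 2 alone included 14 near Foxa3, 9 near Foxh1, 9 near Foxk1 and 7 each near Foxj1, Foxp4 and Foxr1. Without mutant 2 the mean difference in forkhead regions was −230.5.

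The widest gaps lay inside gene bodies. Of 47 distal regions of both controls inside the body of a forkhead gene, 30 were in no mutant (63.8%), where 42.1% of the distal regions inside genes of any kind met that call. Foxp1, Foxp2 and Foxn3 held 22 of these 30 regions. Outside the bodies the share was 30.5% up to 25 kb away, 25.7% at 25 to 50 kb and 34.2% at 50 to 100 kb. Each of these 3 shares lay below the 42.7% of all distal regions. Distal regions nearest to the end of a forkhead gene were in no mutant at 50.5% of 109, and those nearest to another gene at 25.9% of 108. The 42.7% of all distal regions lies between them. Exons and introns cannot be told apart in the gene table used, so these positions are given as inside the body only.

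The share went with gene length. In the 30 forkhead genes under 50 kb, 2 of 7 distal regions in the body were in no mutant (28.6%, against 23.7% in all genes of that length). In the 5 genes of 50 to 200 kb it was 6 of 13 (46.2%, against 44.3%). In the 3 genes over 200 kb, which are Foxp1 (597.4 kb), Foxp2 (540.6 kb) and Foxn3 (373.6 kb), it was 22 of 27 (81.5%, against 54.4%). These 3 genes were grouped after their values were seen. Per library, 88.9%, 85.2% and 92.6% of these 27 regions lacked a peak in mutants 1, 2 and 3, a mean of 88.9% ± 3.70, beside 69.4% ± 7.67 for the distal regions inside all 990 genes over 200 kb (SD, n = 3 mutants each). Among the 434 genes over 200 kb with at least 5 such regions, the median share in no mutant was 57.1%, with quartiles of 40% and 70%. The share of Foxp1 was 90.9%, and 27 of the 434 genes reached it. Foxp2 had a lower share of 80% (4 of 5 regions), and Foxn3 one of 72.7% (8 of 11).

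Counted in each library, distal regions inside Foxp1, Foxp2 and Foxn3 together numbered 5, 9 and 2 in mutants against 58 and 34 in controls. Inside all genes over 200 kb they numbered 2372, 2563 and 1323 in mutants against 8996 and 6840 in controls, also without overlap. Foxp1 alone had 1, 3 and 1 in mutants against 24 and 14 in controls. Foxn3 had 3, 5 and 0 in mutants against 25 and 14 in controls, and Foxp2 had 1 in each mutant against 9 and 6 in controls. In each of the 3 genes both controls had more than any mutant. At equal list length the 3 genes together still had 2, 2 and 2 in mutants against 12 and 9 in controls, where the counts of forkhead regions as a whole overlapped. Inside all genes over 200 kb the counts at equal length were 1597, 1375 and 1329 in mutants against 2577 and 2391 in controls, so the lower count in mutants is not particular to these 3 genes. Of 6 such regions in both controls 4 were in no mutant (66.7%), against 40% inside all genes over 200 kb and 27.5% of all distal regions. With so few regions at equal length, the 3 genes cannot be ordered among themselves.

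Shorter genes gave a mixed picture. Foxo3 (94.9 kb) had no distal region inside its body in any mutant against 5 and 3 in controls, and 2 and 2 in the controls at equal list length. Foxp4 (57.5 kb) had 4, 10 and 1 in mutants against 8 and 7 in controls, and mutant 2 lay above both controls. Foxk1 (60.5 kb) had 3, 7 and 3 in mutants against 4 and 5 in controls, groups that overlap. Foxo1 (81.8 kb) had 0, 1 and 0 in mutants against 3 and 1 in controls.

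**Figure D4:**
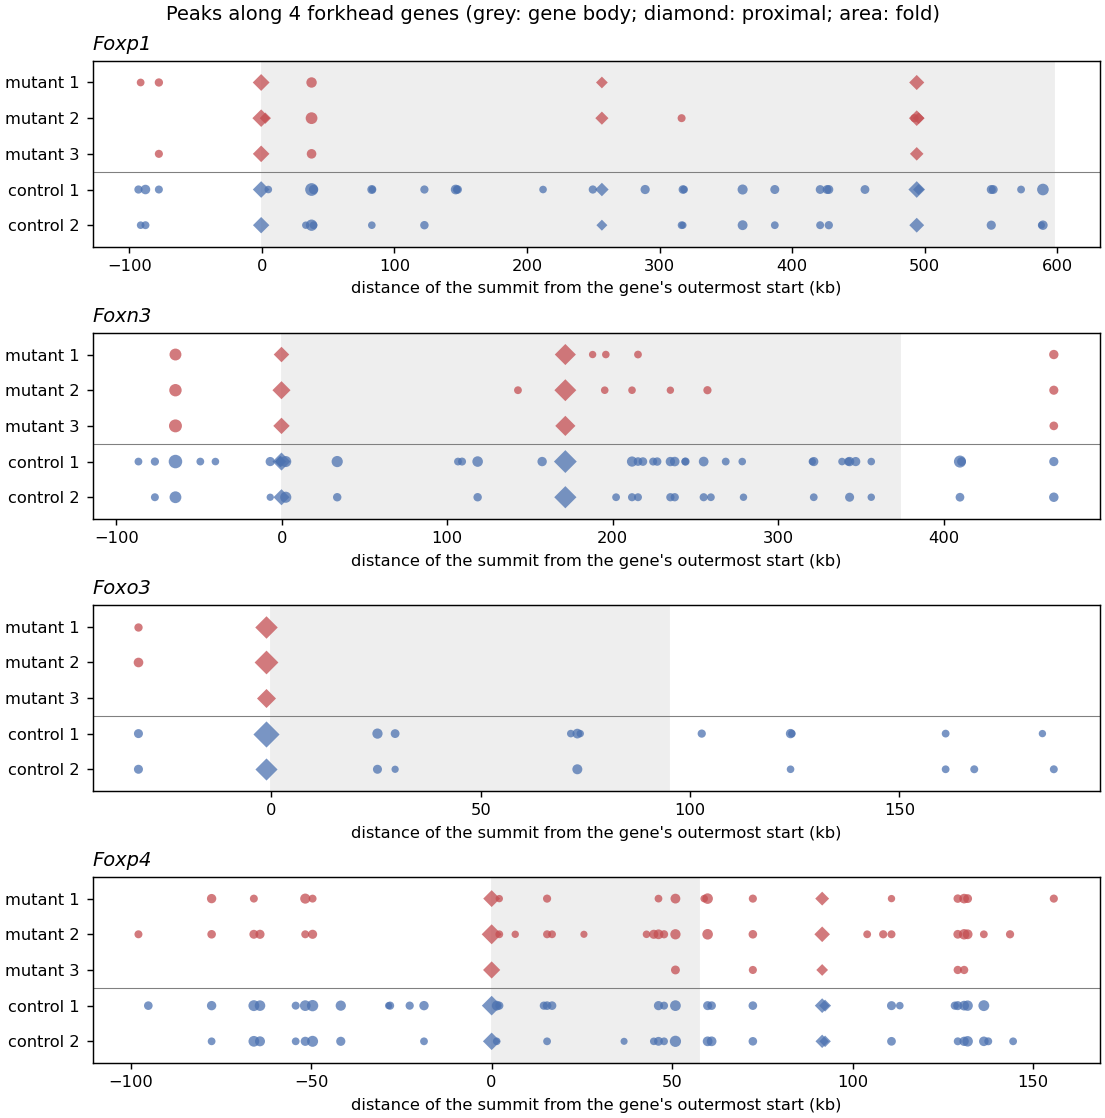
Peaks of each library along Foxp1, Foxn3, Foxo3 and Foxp4, by distance of the summit from the outermost start in kb, mutants (red) above controls (blue). Grey marks the gene body, diamonds are proximal regions, circles are distal, and the area of a symbol grows with the authors' fold. Inside Foxp1 the mutants have 1 to 3 distal regions and the controls 24 and 14, while 2 of the 3 proximal regions of both controls are in every mutant.

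Single loci show the pattern. The outer start of Foxp1 (chr6:99520271-99523697) had folds over background, as the authors' peak caller gave them, of 7.25, 7.88 and 7.06 in mutants, against 7.11 and 6.87 in controls. These are the highest folds anywhere in that merged region. Over the listed start window in it, chr6:99520944-99521243, which holds the TGTTTGC match, the peaks had folds of 7.25 and 7.88 in mutants 1 and 2, with none in mutant 3, against 7.11 and 4.04 in controls. The start inside the gene, printed above, lay in chr6:99027664-99029068, with folds of 5.86, 6.24 and 4.71 in mutants, against 7.11 and 5.66 in controls. Of the 11 distal regions of both controls in the body, the single one that the mutants kept was chr6:99484203-99486222, 37.4 kb inside the outer start, with folds of 5.55, 7.06 and 4.71 in mutants, against 8.32 and 6.60 in controls. The strongest of the other 10 were chr6:98933084-98933757, near the far end of the gene, with folds of 6.94 and 4.58 in the controls, and chr6:99159485-99160665, 362.6 kb inside, with 5.20 and 4.99. No mutant had a peak at either.

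Foxp2 had a start peak at chr6:14899794-14902013, with folds of 8.33, 8.38 and 8.24 in mutants, against 11.8 and 10.4 in controls. Its strongest region in no mutant was chr6:15321356-15321938 inside the body, with folds of 6.59 and 5.12 in the controls. A body region that all libraries shared, chr6:15184069-15185174, had folds of 3.70, 4.27 and 3.20 in mutants, against 7.28 and 5.12 in controls. At Foxn3 the region chr12:99560709-99561614, 2.4 kb inside the outer start, had folds of 6.24 and 6.33 in the controls and no peak in a mutant. The start peak beside it (chr12:99561946-99564027) had folds of 6.17, 8.38 and 6.90 in mutants, against 8.32 and 6.60 in controls. The 2 regions lie within 1 kb of each other, and only the proximal one was called in the mutants.

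Foxo3 had the highest start peak of the family in every library but mutant 3, at chr10:42273987-42278980, with folds of 13.0, 14.5 and 9.25 in mutants, against 17.5 and 12.5 in controls. Inside its body chr10:42203125-42204245 had folds of 4.85 and 5.12 in the controls, chr10:42251242-42251834 had 5.37 and 4.18, and neither had a peak in a mutant. The strongest region in no mutant lay outside the forkhead gene bodies. In the shared window of Foxd2 and Foxe3, chr4:114842277-114842962, which lies 63.3 kb from the body of Foxd2, had folds of 7.46 and 6.74 in the controls. Others were chr12:99153705-99154708 beside Foxn3 (7.46 and 3.91), chr17:47966013-47966798 beside Foxp4 (5.37 and 4.31) and chr6:128399477-128400544 in the window of Foxm1 (4.85 and 4.04), the last nearest to Nrip2.

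Distal regions that all 5 libraries shared were stronger. The strongest was chr6:122810234-122812590, 7.6 kb from Foxj2 and nearest to Slc2a3, with folds of 13.1, 13.6 and 15.8 in mutants, against 15.6 and 19.4 in controls. In the window of Foxo4, chrX:101332026-101333627, nearest to Nlgn3, had folds of 6.48, 6.41 and 7.23 in mutants, against 10.6 and 12.1 in controls. Inside Foxk1, chr5:142439538-142441746 had folds of 7.25, 6.73 and 7.40 in mutants, against 8.67 and 8.89 in controls. Outside Foxn3, chr12:99627251-99628539 had 7.25, 7.88 and 8.58 in mutants, against 9.36 and 7.14 in controls. Folds are not scaled between lists, so they describe each library and give no ratio between them.

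The next call used 1 kb around the members' own starts, or around either end of genes whose strand was not listed. By that call 25 of the 38 genes had a proximal peak in all 5 libraries, against 58.5% of 21631 protein-coding genes. Another 5 (Foxa2, Foxb1, Foxb2, Foxd4 and Foxe1) had one in 2 mutants and both controls, and in each case mutant 3, the shortest list, was the library without it. Foxn4 had one in 1 mutant and both controls, Foxi2 in 1 mutant and 1 control, and Foxs1 in mutant 2 only. Foxi1, Foxn1, Foxp3, Foxr1 and Foxr2 had none in any library, as had 31.1% of all genes. Over the listed start windows alone the family lay below the background instead. There 11 of 30 member starts (36.7%) had a peak in all 5 libraries, against 51.7% of all listed starts. Among the proximal regions Foxn2 was highest in mutant 3 and came after Foxo3 in the other 4 libraries. Its folds were 9.87, 10.7 and 13.1 in mutants, against 11.96 and 10.8 in controls. Foxj3 had 8.49, 10.02 and 7.91 in mutants, against 10.6 and 9.16 in controls, and Foxk2 had 6.79, 9.20 and 5.21 in mutants, against 9.19 and 8.89 in controls. The family thus had proximal peaks in both genotypes at genes of other lineages too, such as Foxa3 and Foxl2. Over the listed Foxa3 start window itself, mutant 2 and both controls had a peak and mutants 1 and 3 had none.

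**Figure D5:**
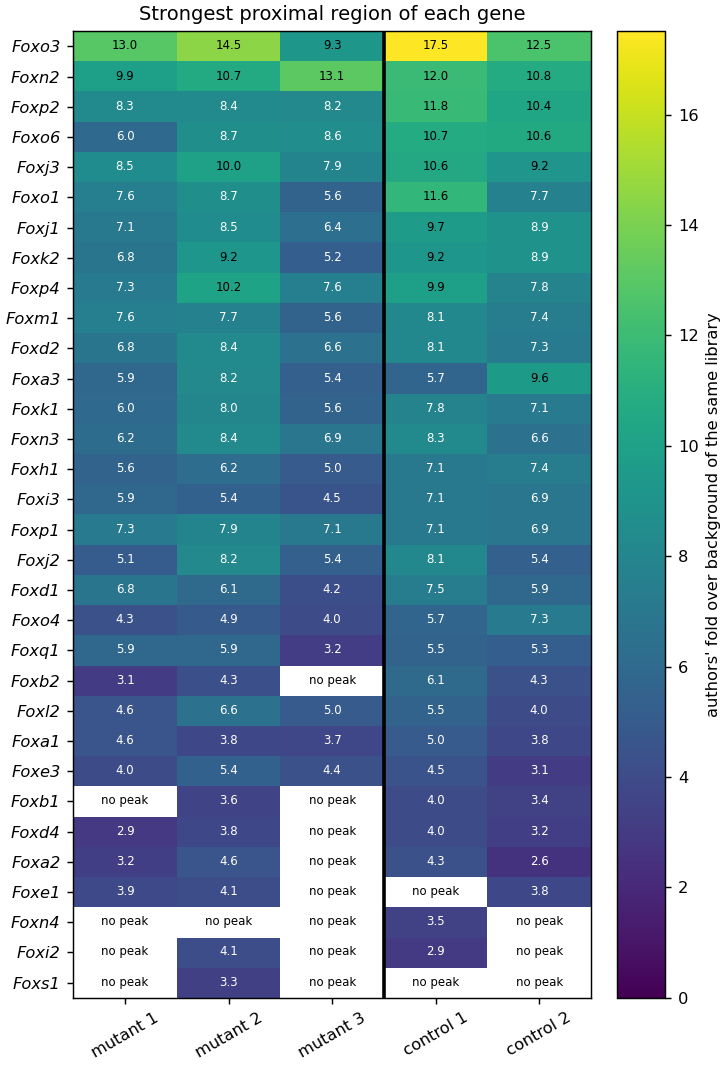
Authors' fold over background, within each library, of the strongest proximal region of the forkhead genes that had one. Proximal means near a listed start, or near either end where the strand was not listed. Mutants stand left of the black line and controls right. White cells have no peak in that region. Foxo3 has 13.0, 14.5 and 9.25 in mutants, against 17.5 and 12.5 in controls, the highest in each library but mutant 3, where Foxn2 has 13.1, and mutant 3 has the most cells without a peak.

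The order of strength within a library could be compared at the 19579 regions with a peak in all 5 lists, by the percentile rank of the fold among them. Of 171 such forkhead regions, 19 ranked higher in every mutant than in either control (11.1%, against 12.8% of all shared regions) and 16 ranked lower (9.36%, against 11.6%). Among the 106 proximal ones, 13 ranked higher and 5 lower, where the background was 11.9% and 8.61%. Among the 65 distal ones, 6 ranked higher and 11 lower, where the background was 14.2% and 16.4%. The 2 largest differences downward were distal. A region beside Foxe3, chr4:114942048-114943303, ranked at 6.0, 1.35 and 18.5 in mutants against 34.0 and 60.8 in controls. The region chr6:14897848-14898996, 2.4 kb outside Foxp2, ranked at 14.4, 38.2 and 32.1 in mutants against 67.2 and 49.2 in controls. Upward, a distal region in the window of Foxj2, chr6:122739729-122740595, ranked at 46.4, 31.3 and 39.8 in mutants against 4.14 and 16.4 in controls. Proximal regions of Foxl2, Foxe3 and Foxp1 were also among the 5 largest upward differences. The Foxe3 region lies inside the gene, next to the listed start window, and that window had no peak in any library. The merged region at the Foxp1 outer start ranked at 67.3, 64.1 and 73.8 in mutants against 42.8 and 49.2 in controls.

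Genes that act with forkhead factors were read by the same rule, as a list of 27 with kinases and receptors of the insulin pathway, SMADs and co-regulators. Of their 269 regions in both controls, 48 were in no mutant (17.8%) and 157 in every mutant (58.4%), beside 30.4% and 43.4% of all regions. Igf1r, a receptor upstream of the Foxo factors, had 8 of 19 in no mutant. Ctbp2, a co-repressor that Foxp proteins bind, had 5 of 12. Akt1 had 4 of 24 in no mutant and 17 in every mutant. The acetyltransferase genes Ep300 and Crebbp had all 7 and all 4 of their regions in every mutant.

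The lists also differed at marker genes of the cells in the bud. Limb mesenchyme markers with a proximal region numbered 9, 9 and 7 of 9 in mutants against 9 and 9 in controls, and the 2 without one in mutant 3 were Prrx2 and Tbx5. Muscle precursor markers with one numbered 3, 4 and 1 of 5 in mutants against 5 and 5 in controls. Myf5 had none in any mutant, Myod1 had one in mutant 2 only, and Lbx1 and Pax3 lacked one in mutant 3, while both controls had all of them. Ectoderm markers numbered 5, 5 and 3 of 8 in mutants against 5 and 6 in controls, with Krt14 and Trp63 at none in any library. Endothelium markers numbered 3, 3 and 3 of 7 in mutants against 4 and 3 in controls, blood markers 3 of 5 in every library, and neural crest markers 4, 5 and 4 of 5 in mutants against 5 and 4 in controls. All regions in the windows of muscle precursor markers numbered 22, 36 and 9 in mutants against 52 and 46 in controls. Those of limb mesenchyme markers numbered 92, 113 and 49 in mutants against 167 and 141 in controls, of ectoderm markers 45, 67 and 35 against 85 and 80, and of endothelium markers 39, 48 and 35 against 81 and 69. Those of blood markers numbered 56, 61 and 45 in mutants against 70 and 70 in controls, and of neural crest markers 60, 68 and 43 against 76 and 75. Every mutant lay below both controls in all 6 marker lists. The windows of 48.8% of 19485 single genes also met that pattern. A marker list pools the windows of 5 to 9 genes, so it cannot be set against that share. The mutant peak lists were shorter throughout, and marker counts at equal list length are not given. The part of these cell types in the forkhead counts was not tested. The proximal region of Smarcc1 had folds of 9.26, 8.38 and 8.41 in mutants, against 10.9 and 10.2 in controls, but it does not check the labels, since the peak lists do not show which part of the gene Cre removed.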

How the data were processed

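ATAC-seq libraries of 3 mutant and 2 control embryos were grouped by the genotype in the labels. Every library is another embryo, so the spread between libraries includes that between animals. Per the submitters' processing notes, the build was mm10 and the tools were bcl2fastq 2.20.0, Bowtie2 2.3.5 and MACS2. The version and options of MACS2, how duplicates were handled, and whether reads were shifted for the transposase cut were not given in the sources used here. Per the labels, the authors deposited a separate peak list for every library, with start, end and summit positions. Each deposited row also holds a display score, which was not used, a fold enrichment ratio over background, and −log10 p-values and −log10 q-values. The authors' fold is relative to its own library's background and carries no scaling across libraries. It served only to describe and rank peaks within a list. Chromatin that is open below the caller's threshold is missing from a list, and a shorter list has fewer regions.

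Peaks on chromosomes 1 to 19 and X were merged with Python 3.11.15, pandas 2.3.3, numpy 2.4.6 and scipy 1.17.1. Gene bodies and starts came from RefSeq tables of GRCm38.p6, which gave the strand of 25 of the 38 genes and no exons. The class planned for starts thus uses either gene end for the other genes. Counts per library were compared with an exact two-sided permutation test over the 10 ways to choose 3 of the 5 libraries. The counting code was tested on simulated data. The background of each list, recovered from the even steps of the deposited fold values, was 5.48, 5.09 and 4.95 in the mutants and 4.77 and 6.42 in the controls. The number of reads is unknown, and no counting interval is given. The lists of members by role, pathway genes and markers, and all tests, were chosen with earlier results of these data known. Named regions are the 12 strongest of both controls in no mutant, the 10 strongest distal ones in all libraries and the 5 largest rank differences each way, of which some are described, with starts. A few genes and regions that this rule takes are not reported here. Other thresholds, list lengths, overlaps, windows and assignments were tried, and each library was left out in turn.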

Additional observations from a re-analysis of the deposited data

How the results depend on the processing

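The lower count of forkhead regions in mutants, in all and in distal regions, kept its direction under every alternative except equal list length, where the difference in all regions was +9.33 and in proximal regions +10. The difference in distal regions was then −0.667. Leaving out each library in turn gave −231.7 to −143.5 for all regions, −28 to −8.5 for proximal and −210.7 to −135 for distal regions.

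The percent of regions of both controls without a peak in a mutant (37.2%) was 13.9% at equal list length, 48.2% where peaks had to cover at least 50% of a region, and 50.5% for regions nearest to a forkhead gene. Leaving out libraries gave 32.0% to 54.5%. The count in no mutant (91) was 55 at a −log10 q of at least 5, 23 at a −log10 q of at least 10, 13 at equal list length, 48 in windows of 20 kb and 58 for the nearest gene. It was 92 to 224 without 1 library. The count in every mutant (171) was 83 at a −log10 q of at least 10, 100 under the stricter overlap, 71 in windows of 20 kb, 53 for the nearest gene and 173 to 218 without 1 library. The count in every mutant and neither control (0) was 4 at equal list length and 0 to 4 without 1 library.

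Inside Foxp1, Foxp2 and Foxn3 the percent (88.9%) was 66.7% at equal list length, 97.1% under the stricter overlap and 83.9% when either gene end counted as proximal, the last chosen after seeing the data. It was 87.0% to 94.9% without 1 library. Windows of 20 kb cannot change it. Leaving out windows shared with the 6 omitted forkhead genes gave 90 regions in no mutant. No paired analysis was possible because the labels give no replicate numbers that could pair a mutant with a control. The read depth of the 5 libraries is unknown, and its part in these counts was not tested.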
